A study of Saccharomyces cerevisiae with 167 samples.

Results

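Total histone H4 occupancy was compared between budding yeast cells that lack SNF2 and wild-type (WT) cells, over time courses of heat shock. SNF2 encodes the ATPase of SWI/SNF, a remodelling complex that uses ATP to slide nucleosomes along DNA or to evict them. Activators bring the complex to promoters, where the loss of nucleosomes opens DNA to the transcription machinery. Heat shock in yeast is known for fast induction of chaperone genes by Hsf1 and of general stress genes by Msn2 and Msn4, with loss of histones at the most active of them. H4 is part of every canonical nucleosome, so its chromatin immunoprecipitation (ChIP) signal is read as a measure of nucleosome occupancy.

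The comparison rests on 39 of the 167 arrays of the series, 20 of snf2 deletion cells and 19 of WT cells. Each deletion array was paired with the WT array of the same set and time code, and only pairs present in both strains were kept. Set 1 gave 5 pairs, without T0 and T60, and sets 2 and 3 gave 7 pairs each, at T0, T5, T15, T30, T60, T300 and T900. One further H4 time-course array, WT at T60 in set 1, had no deletion partner and was left out. The deletion T900 sample of set 2 was measured on repeat arrays 2-a and 2-b, which were averaged and counted as 1 sample. Differences were averaged over the time codes of a set, so each probe had 3 values of deletion minus WT, 1 per set.

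Both strains were cross-linked with formaldehyde and their chromatin sheared to fragments under 1 kb. H4-associated DNA was labelled with Cy5 and hybridised against Cy3-labelled genomic DNA of unstressed WT cells, for both strains. A lower value in the deletion can therefore stand for less H4 or for fewer copies of that DNA, and the 2 cannot be told apart. Likewise, a higher value can stand for more H4 or for more copies. The labels give neither the background strain, the deletion construct, the antibody of the time courses, nor a unit for the T codes of the chromatin arrays. They also do not say whether the 3 sets were separate cultures, so p-values measure the spread between these sets, which may be technical. The arrays average over all cells of a culture, so a small change in every cell and a larger change in some cells look alike. Values are log2 ratios of H4 DNA over genomic DNA, with each array centred on the median of its probes, and a difference of 1 is a 2-fold difference in that ratio. Absolute amounts of H4 per genome cannot be read from them.

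The deleted gene itself checked the strain labels. The SNF2 ORF probe averaged -1.0, -1.46 and -2.31 in the deletion in sets 1, 2 and 3, against 0.06, 0.22 and 0.01 in WT. It was lower in the deletion in all 19 pairs and the sets of the strains did not overlap. The mean difference was -1.69 ± 0.64 (SD, n = 3 sets; limma adjusted p = 0.0088). The neighbouring probes did not pass the threshold. The promoter shared by SNF2 and YPK9, a vacuolar ATPase gene, differed by -0.11, -0.19 and -0.21 (limma adjusted p = 0.53), and the YOR289W ORF on the other side by -0.16, -0.02 and -0.51 (limma adjusted p = 0.56). Among these probes the difference thus passed at the SNF2 ORF alone, although the YOR289W ORF reached -0.51 in set 3.

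Away from SNF2, nearly all differences past the threshold were gains of H4 signal in the deletion. Of 13020 probes tested, 117 passed an adjusted p of 0.05 (0.899%), 115 of them higher in the deletion (0.883%) and 2 lower (0.0154%). At an unadjusted p under 0.05 there were 1090 probes. The count depended on the sets: without set 3 it was 19 and without set 1 it was 226. Across 13020 probes the differences of the sets correlated weakly, with r of 0.15 between sets 1 and 2, 0.15 between sets 1 and 3 and 0.26 between sets 2 and 3. The deletion T900 arrays of sets 1 and 3 resembled the other arrays of their set least, with a mean r of 0.440 and 0.471, and without those codes 92 probes passed, 84 of them among the 117. The 115 gains were modest: they ran from 0.37 to 0.97, or 1.30- to 1.96-fold, with a median of 0.50. Only SNF2 differed by 2-fold or more among the probes past the threshold. Of the 115, 38 were higher in every one of the 19 pairs, whereas 48 of all 13020 probes were. At 96 of the 115 the set means of the strains did not overlap, beside 4.07% of all probes higher without overlap and 2.1% lower without overlap. Since the same values chose the 115 probes, this count describes them and is no further test.

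The gains lay in genes and between them. Of 6262 ORF probes, 48 were higher in the deletion (0.767%), and of 5811 intergenic probes, 62 (1.07%). The intergenic gains included 42 of the 4105 probes that lie upstream of at least 1 gene and are called promoter probes here (1.02%). Gaps between genes that point the same way held 37 of 2640, gaps between divergent genes 11 of 1438 and gaps between convergent genes 13 of 1433. Some of the 115 lay close together: 109 of them could be placed on the map and fell into 85 loci, and 20 loci held 2 or more. A locus joined probes that lay within about 1 gene of each other. Probes that did not pass can therefore lie between its members, as the HXK1 ORF does. One of the largest, with 3 probes, covered GSY2, which encodes glycogen synthase, at its promoter, its ORF and the gap that follows it. Fragments up to 1 kb reach from a promoter into its gene, so adjacent probes are not independent.

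The probes that gained H4 in the deletion were poor in H4 in WT cells. Their median level was -0.33, -0.29 and -0.49 in the deletion in sets 1, 2 and 3, against -0.86, -0.78 and -1.03 in WT, where the median of all probes lay between -0.01 and 0.01. All 115 lay below the array median in WT in each set, and 99, 101 and 108 still did so in the deletion. The deletion thus had a higher H4 signal than WT at these places and still a lower one than the typical probe. Since the WT values enter the difference that chose the probes, H4 levels were also read from arrays outside the comparison. On 3 arrays of tagged H4 over genomic DNA in unstressed cells at 30 °C, the median of the 48 ORF probes lay below that of the other ORF probes by -0.42 ± 0.13 (SD, n = 3 arrays), and that of the 62 intergenic probes by -0.45 ± 0.02. With all probes ordered by those 3 arrays and divided into 10 equal classes of 1302 probes, the class lowest in H4 held 63 of the 115 (4.84% of its probes) and the highest class held 1 (0.0768%).

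**Figure D1:**
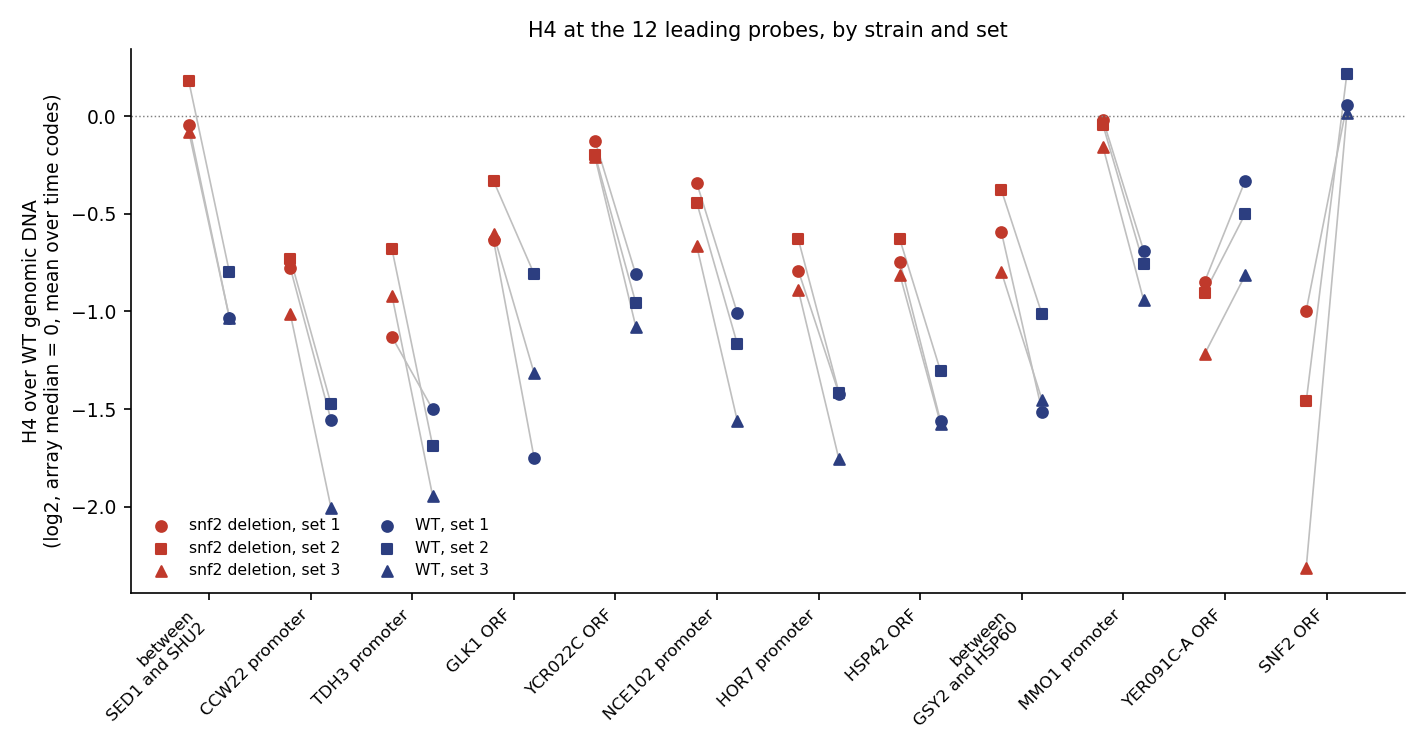
H4 level (log2 of H4 DNA over genomic DNA, array median at 0, mean over time codes; y axis) at the leading probes (x axis), with 1 point per set for the snf2 deletion (left, red) and WT (right, blue) and a line joining the points of a set. Deletion points lie above WT points at the 10 probes that gained H4, such as the gap between SED1 and SHU2 (deletion -0.05, 0.18 and -0.08, WT -1.03, -0.80 and -1.03), and below them at YER091C-A and SNF2 (SNF2: deletion -1.0, -1.46 and -2.31, WT 0.06, 0.22 and 0.01).

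The largest gain was in the gap between SED1, which encodes an abundant cell wall glycoprotein, and SHU2. This probe averaged -0.05, 0.18 and -0.08 in the deletion, against -1.03, -0.80 and -1.03 in WT. The WT sets all lay about 1 unit below the deletion sets, with no overlap and little spread. The difference was 0.97 ± 0.02 (SD, n = 3 sets; limma adjusted p = 0.0024), and it was positive in all 19 pairs. The SED1 ORF rose by 0.55 ± 0.17 (limma adjusted p = 0.021, and 0.115 without set 3). The SED1 promoter gave 0.21 in set 1, 1.19 in set 2 and 1.32 in set 3, a mean of 0.91 with a limma adjusted p of 0.069, so set 1 stood apart there.

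Second came the promoter of CCW22, a cell wall protein gene, at -0.78, -0.73 and -1.01 in the deletion, against -1.56, -1.47 and -2.01 in WT. The groups did not overlap, and the difference was 0.84 ± 0.13 (SD, n = 3; limma adjusted p = 0.0063). The CCW22 ORF rose as well, by 0.63 ± 0.07 (limma adjusted p = 0.0088). The promoter of TDH3, the main glyceraldehyde-3-phosphate dehydrogenase gene, averaged -1.13, -0.68 and -0.92 in the deletion, against -1.50, -1.69 and -1.94 in WT. Its difference was smaller in set 1, at 0.37, than in sets 2 and 3, at 1.01 and 1.02, and the mean of 0.80 had a limma adjusted p of 0.023. Without set 3 that adjusted p was 0.114.

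The GLK1 ORF, which encodes glucokinase, had -0.64, -0.33 and -0.61 in the deletion, against -1.75, -0.81 and -1.32 in WT (difference 0.77 ± 0.32, limma adjusted p = 0.020). The deletion sets were above every WT set, while the WT sets were spread over nearly 1 unit. Without set 3, its limma adjusted p was 0.074. The NCE102 promoter, upstream of an eisosome membrane protein gene, had -0.34, -0.44 and -0.66 in the deletion, against -1.01, -1.17 and -1.56 in WT. The HOR7 promoter, of a hyperosmolarity-responsive gene, had -0.79, -0.63 and -0.89 in the deletion, against -1.42, -1.42 and -1.76 in WT. Each rose by 0.76 ± 0.12 (SD, n = 3; limma adjusted p = 0.0063), in all 19 pairs. The other members of the leading 10 were the YCR022C ORF (0.77), the HSP42 ORF (0.75), the gap between GSY2 and HSP60 (0.74) and the MMO1 promoter (0.72). All 4 were higher in each set and had limma adjusted p-values between 0.0063 and 0.0085.

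Besides SNF2, 1 probe fell. The YER091C-A ORF averaged -0.85, -0.90 and -1.22 in the deletion, against -0.33, -0.50 and -0.81 in WT. The difference was -0.44 ± 0.07 (SD, n = 3; limma adjusted p = 0.025), negative in 17 of 19 pairs, and deletion and WT sets did not overlap. Without set 3 its limma adjusted p was 0.114. The YER091C-A ORF lies beside MET6 (YER091C), so probes of the 2 are not independent. The MET6 ORF and promoter were also lower in all 3 sets, by -0.27 and -0.29, and did not pass (limma adjusted p = 0.18 and 0.15). The GIM5 ORF, of a prefoldin subunit gene, was negative in all 19 pairs at -0.36, -0.22 and -0.18 in the 3 sets, and did not pass (limma adjusted p = 0.26). With all arrays scaled to the same spread, 6 probes were lower in place of 2.

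**Figure D2:**
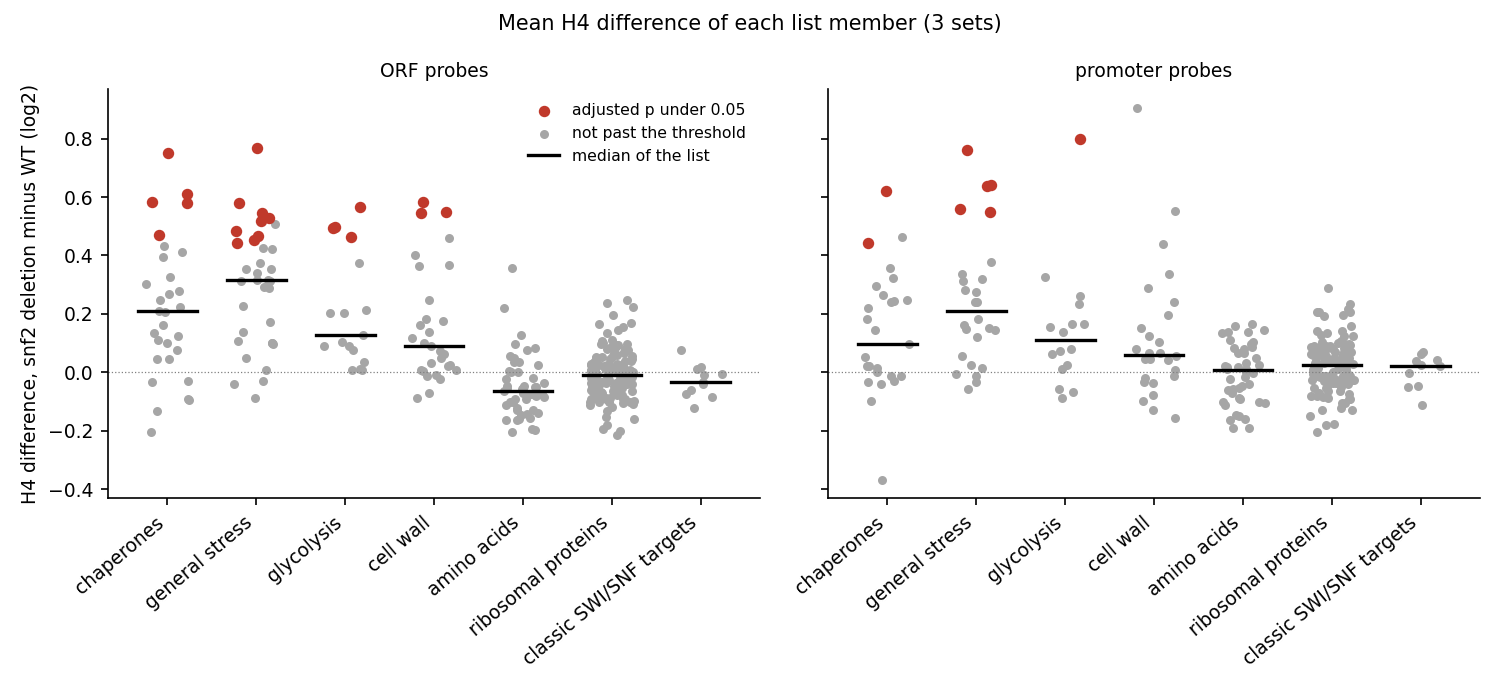
Mean H4 difference, snf2 deletion minus WT (log2; y axis), of each member of 7 gene lists (x axis; 1 point per probe, mean of 3 sets), for ORF probes on the left and promoter probes on the right, with red points past an adjusted p of 0.05 and a bar at the list median. Among ORF probes the general stress (9 of 34) and chaperone (5 of 30) lists have the most red points, whereas ribosomal protein genes (0 of 137) lie around 0.

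Of the gene lists, general stress and chaperone genes held the most gains by number, and by share of ORF probes general stress (9 of 34) was followed by glycolysis (4 of 17) and chaperones (5 of 30). Among the 34 general stress genes, which act in carbohydrate reserve, osmotic and oxidative defence, 9 ORF probes rose and none fell, and the median difference was 0.32. Over all ORF probes, 48 of 6262 rose and the median was -0.00. Of the 34, 24 were higher in all 3 sets, beside 16.4% of all ORF probes. Their promoter probes gave 5 of 26, with a median of 0.21, beside 42 of 4105 and a median of -0.01 for all promoter probes. Without set 3, 0 of the 34 ORF probes and 1 of the 26 promoter probes passed the threshold.

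The 9 ORFs were GLK1, PGM2, SPI1, GRE3, GPD1, TFS1, DDR2, TPS2 and GSY2. PGM2, a phosphoglucomutase gene, averaged -0.08, 0.06 and -0.31 in the deletion, against -0.71, -0.50 and -0.86 in WT. The sets did not overlap, and the difference was 0.58 ± 0.05 (SD, n = 3; limma adjusted p = 0.010). SPI1, a cell wall protein gene, rose by 0.55 ± 0.08 (limma adjusted p = 0.015), and GRE3, an aldose reductase gene, by 0.53 ± 0.15 (limma adjusted p = 0.021). TPS2, for the phosphatase of trehalose synthesis, rose at its ORF by 0.45 and at its promoter by 0.56. The 5 promoters were those of HOR7, GSY2, HSP12, TPS2 and HXK1.

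The HSP12 promoter probe, which lies in the gap shared with YFL015C, averaged -0.06, 0.02 and 0.00 in the deletion, against -0.81, -0.40 and -0.75 in WT. HSP12 encodes a small membrane-associated stress protein. The deletion sets lay at the array median and above every WT set, with a difference of 0.64 ± 0.19 (SD, n = 3; limma adjusted p = 0.015, and 0.076 without set 3). The HSP12 ORF had differences of 0.34, 0.32 and 0.87 and did not pass (limma adjusted p = 0.09). The ORF of CTT1, the cytosolic catalase gene, had 0.52, 0.31 and 0.29 and did not pass either (limma adjusted p = 0.073).

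Of 30 chaperone and heat shock genes, 5 ORF probes rose, beside 0.767% of all ORF probes, none fell, and the median difference was 0.21. In all 3 sets 18 of the 30 were higher and none was lower, beside 16.4% of all ORF probes higher. Their promoters gave 2 of 27, with a median of 0.10, beside 1.02% of all promoter probes. Without set 3, 1 of the 30 ORF probes passed. The ORF of HSP42, a small heat shock protein gene, averaged -0.74, -0.63 and -0.81 in the deletion, against -1.56, -1.30 and -1.57 in WT, without overlap (difference 0.75 ± 0.07, SD, n = 3; limma adjusted p = 0.0063). The ORF of BTN2, which sorts misfolded proteins into deposits, had -0.80, -0.78 and -1.35 in the deletion, against -1.43, -1.28 and -2.04 in WT. Deletion set 3 lay just below WT set 2, so the groups overlapped, while within every set the deletion was higher. The difference was 0.61 ± 0.10 (limma adjusted p = 0.010), and at the BTN2 promoter it was 0.62 ± 0.10 (limma adjusted p = 0.010).

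The Hsp90 genes HSP82 and HSC82 are near-identical, so their probes may share DNA and the values cannot be given to 1 copy. HSP82 had -0.45, -0.61 and -1.11 in the deletion, against -1.19, -1.06 and -1.67 in WT, and HSC82 differed by 0.76, 0.42 and 0.57. Both rose by 0.58, and SSE1, an Hsp110 gene, by 0.47 (limma adjusted p = 0.015, 0.017 and 0.024). Other heat shock genes did not pass. HSP104, a disaggregase gene, had differences of 0.19, 0.60 and -0.42 (mean 0.12, limma adjusted p = 0.87), with set 3 opposite to the others. HSP26 and SSA4, for a small heat shock protein and an inducible Hsp70, had means of 0.33 and 0.30 and did not pass (limma adjusted p = 0.13 and 0.12).

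Among 17 glycolytic genes, 4 ORF probes rose, beside 0.767% of all ORF probes, none fell, and the median was 0.13. The 4 were TDH2 (0.57), ENO1 (0.50), ENO2 (0.50) and TDH3 (0.46), for glyceraldehyde-3-phosphate dehydrogenase and enolase, each a pair of near-identical genes that the probes may not separate. TDH2 averaged -0.16, -0.03 and -0.29 in the deletion, against -0.71, -0.54 and -0.94 in WT, and was higher in all 19 pairs. Of 16 promoters, that of TDH3 alone passed, beside 1.02% of all promoter probes. Without set 3, 0 of the 17 ORFs passed.

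Of 29 cell wall genes, the ORFs of YGP1 (0.58), SED1 (0.55) and SPI1 (0.55) rose, the median was 0.09, and 0 of 26 promoters passed. The shares over all probes were 0.767% for ORF probes and 1.02% for promoter probes. SPI1 was also counted in the general stress list. Without set 3, 0 of the 29 passed. YGP1, a secreted glycoprotein gene, averaged -0.04, 0.31 and 0.24 in the deletion, against -0.60, -0.14 and -0.50 in WT. The groups did not overlap and the deletion was higher in all 19 pairs. In the sugar transporter list 0 of 28 ORFs and 2 of 24 promoters passed, beside the same shares over all probes. The 2 promoters were those of HXT7 (0.62) and HXT2 (0.42). HXT7 has a near-identical neighbour, HXT6. The HXT2 promoter did not pass without set 2 or without set 3 (limma adjusted p = 0.073 and 0.138).

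Other groups stayed near 0. Ribosomal protein genes gave 0 of 137 ORFs and 0 of 120 promoters, with medians of -0.01 and 0.03 (1090 of all probes had an unadjusted p under 0.05 in this limma fit). At the adjusted threshold, 48 of all 6262 ORF probes (0.767%) and 42 of all 4105 promoter probes (1.02%) were higher. A count of 0 in a list of this size is close to these shares and says little about its members. Among 60 ribosome biogenesis genes no ORF passed, and of 53 promoters that of RPF1 passed, at 0.42 (not without set 2 or set 3, limma adjusted p = 0.053 and 0.204). A list of 11 textbook targets of SWI/SNF, among them SUC2, PHO5, INO1 and HO, gave 0 of 11 ORFs and 0 of 10 promoters, with medians of -0.03 and 0.02. For so short a list, 0 is again close to the shares over all probes. Their ORF means were -0.04 for SUC2 (invertase), 0.01 for PHO5 (acid phosphatase), -0.12 for PHO84 (phosphate transporter), -0.01 for INO1 (inositol synthesis), 0.08 for SER3 (serine synthesis) and -0.01 for HO (the mating-type switching endonuclease). ACT1 (actin) had a mean of -0.12 and RPL3, a ribosomal protein gene, -0.01, neither past the threshold.

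No amino acid synthesis gene passed. Of 49 ORFs, 20 were lower in all 3 sets and 3 were higher in all 3, beside 957 lower and 1030 higher of all 6262 ORF probes, and the median was -0.06. Of the 44 promoter probes of this list 7 were lower and 8 higher in all 3 sets, with a median of 0.01. MET6, for methionine synthase, had -0.24, -0.23 and -0.23 in the deletion at its ORF, against -0.00, -0.00 and 0.13 in WT (difference -0.27, limma adjusted p = 0.18). Histone genes had a median of -0.12 over 11 ORFs, with -0.10 at HHF1 and 0.07 at HHF2, which both encode H4, and none passed. No ORF or promoter passed in the lists for sulfur, phosphate, iron, respiration, meiosis, pheromone response and mating type. As for the amino acid and histone genes, a count of 0 is close to the share over all probes (0.899%). SNF2 itself was the single SWI/SNF subunit gene past the threshold.

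The auxotrophic marker genes were read as a check of other differences between the strains. Of 9 ORFs 1 passed: URA3, for pyrimidine synthesis, at -0.54, -0.63 and -0.94 in the deletion, against -0.83, -1.10 and -1.59 in WT. Its difference was 0.47 ± 0.18 (SD, n = 3; limma adjusted p = 0.042), with overlap between deletion set 3 and WT set 1. It did not pass under 6 of 16 alternatives, among them without set 2 (limma adjusted p = 0.058) and without set 3 (0.232). Its promoter had 0.36 and did not pass (limma adjusted p = 0.094). The labels do not say which marker replaced SNF2, and a difference of H4 and one of copy number cannot be told apart at URA3.

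**Figure D3:**
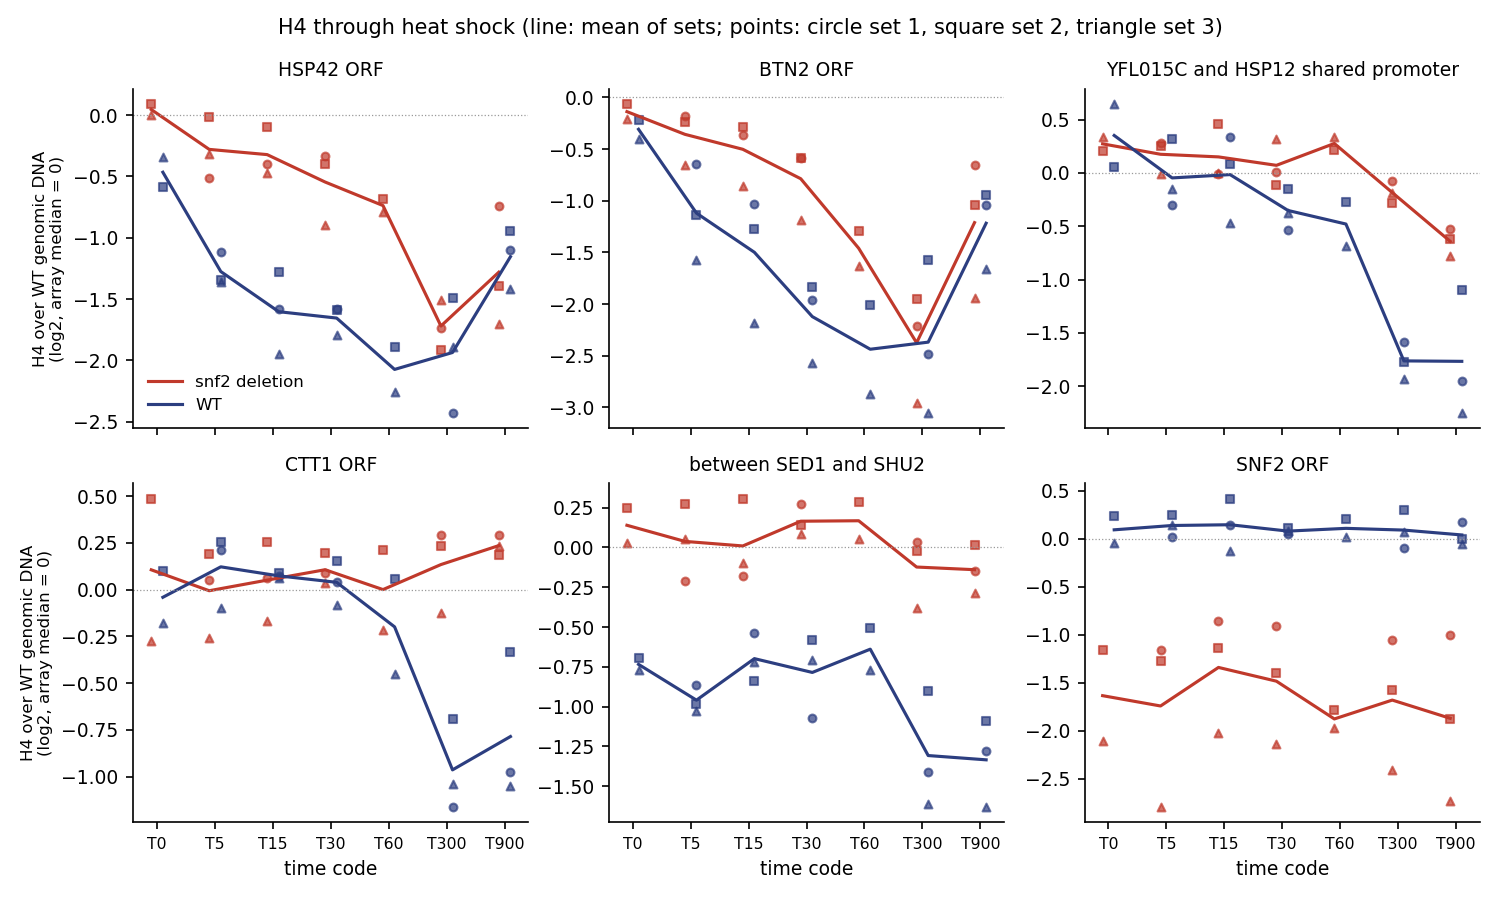
H4 level (log2, array median at 0; y axis, with its own range in each panel) by time code (x axis, codes equally spaced) for the snf2 deletion (red) and WT (blue) at 6 probes, with 1 point per set and a line through the means. At HSP42 and BTN2 the strains lie apart from T5 to T60 and close at T300 and T900, while at the HSP12 promoter and the CTT1 ORF they lie close at T5 and T15 and apart at T300 and T900.

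The levels by time code are given as descriptions, since no test was made at each code after T0. At the HSP42 ORF the T0 mean was 0.05 in the deletion and -0.47 in WT (n = 2 sets). At T5 it was -0.28 ± 0.25 in the deletion and -1.28 ± 0.14 in WT, and at T60 -0.74 and -2.07 (SD, n = 3 and n = 2 sets). At T300 the values were -1.72 ± 0.20 in the deletion and -1.94 ± 0.47 in WT, and at T900 -1.28 ± 0.50 and -1.15 ± 0.24. WT thus stood far below the array median from T5 on, whereas the deletion stood at a similar level only at T300 and T900.

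BTN2 followed the same course. Its ORF stood at -0.50 ± 0.31 in the deletion and -1.50 ± 0.60 in WT at T15, and at -0.79 ± 0.35 in the deletion and -2.12 ± 0.39 in WT at T30 (SD, n = 3 sets). At T300 both strains were at -2.37. In each set the deletion was higher at T5, T15 and T30, and at T900 the difference was 0.01 ± 0.34.

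HSP12 and CTT1 had another course. At the HSP12 promoter the T5 mean was 0.18 ± 0.16 in the deletion and -0.05 ± 0.32 in WT, which overlapped. At T300 it was -0.18 ± 0.10 in the deletion and -1.76 ± 0.18 in WT, and at T900 -0.64 ± 0.13 and -1.77 ± 0.60 (SD, n = 3 sets). The CTT1 ORF stood at 0.13 ± 0.23 in the deletion and -0.96 ± 0.24 in WT at T300, after 0.05 ± 0.21 and 0.07 ± 0.01 at T15. At the promoter shared by FMP45 and YDL221W, FMP45 being a membrane protein gene, the T300 means were -0.03 in the deletion and -1.44 in WT. This probe was picked outside the rule for named probes. Its mean difference over the codes did not pass under 6 of 16 alternatives, among them without set 3 (limma adjusted p = 0.143). At T60 the HSP12 promoter already stood at 0.28 in the deletion and -0.48 in WT (n = 2 sets). At these 3 probes WT stood lowest at T300 and T900, where the deletion lay above it in every set.

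In the gap between SED1 and SHU2, the T0 mean was 0.14 ± 0.16 in the deletion and -0.73 ± 0.05 in WT (SD, n = 2 sets). At T900 it was -0.14 ± 0.15 in the deletion and -1.33 ± 0.27 in WT (SD, n = 3 sets). Deletion values lay above WT values in every set at every code measured. The SNF2 ORF at T0 was at -1.64 in the deletion and 0.09 in WT.

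**Figure D4:**
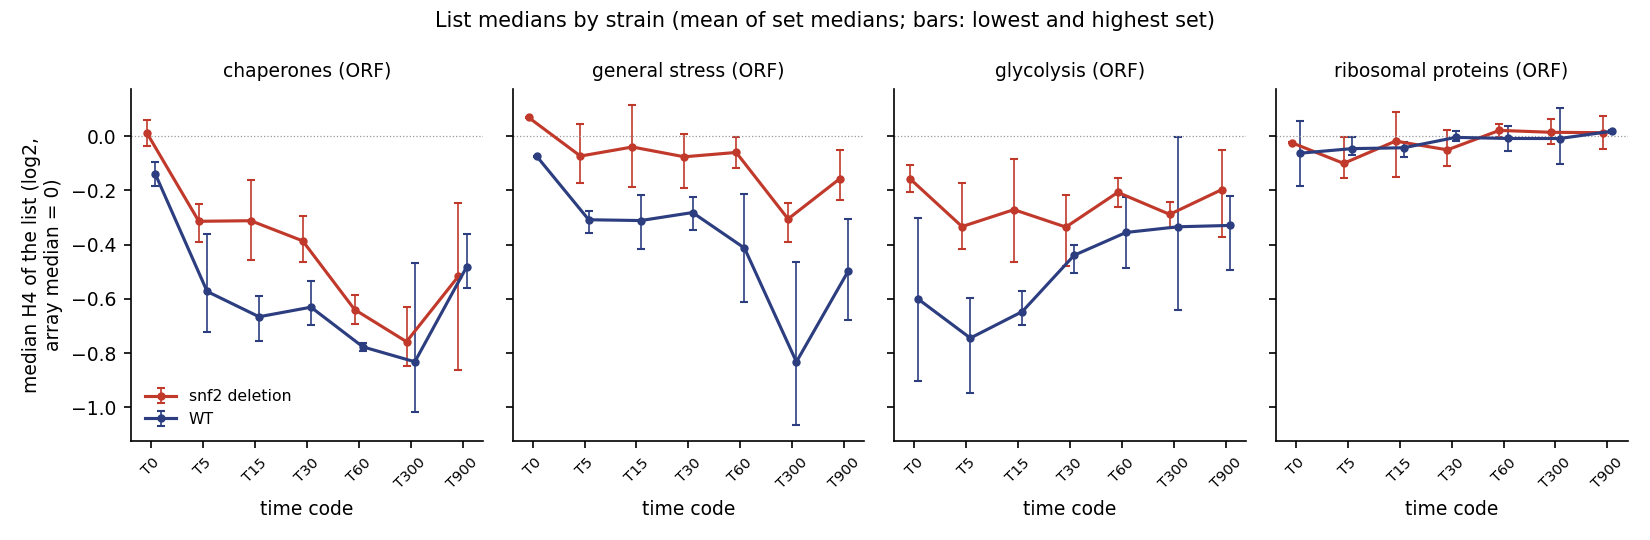
Median H4 level over the ORF probes of 4 gene lists (log2, array median at 0; y axis) by time code (x axis, codes equally spaced) in the snf2 deletion (red) and WT (blue), as the mean of the set medians with bars to the lowest and highest set. The chaperone medians lie apart at T15 (-0.31 in the deletion and -0.67 in WT) and close at T300 (-0.76 in the deletion and -0.83 in WT), whereas the general stress medians lie apart at T15 (-0.04 in the deletion and -0.31 in WT) and at T300 (-0.31 in the deletion and -0.83 in WT).

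The lists are given by time code as descriptions, with no test between lists or codes. Over the 30 chaperone ORFs, the median was -0.31 in the deletion and -0.67 in WT at T15, and -0.76 in the deletion and -0.83 in WT at T300. The median difference of the strains was 0.44 at T15 (0.24 to 0.58 over the sets) and 0.07 at T300 (-0.15 to 0.29). Over the 34 general stress ORFs it was 0.31 at T15 (0.23 to 0.36) and 0.42 at T300 (0.18 to 0.63), ranges that overlap, with levels of -0.04 in the deletion and -0.31 in WT at T15 and -0.31 in the deletion and -0.83 in WT at T300. Glycolytic ORFs had medians of -0.16 in the deletion and -0.60 in WT at T0 (2 sets), and of -0.20 in the deletion and -0.33 in WT at T900. Ribosomal protein ORFs stayed between -0.10 and 0.02 in both strains at all time codes.

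Over the 115 probes, the median difference was 0.41 at T0, 0.42 at T5 and T15, 0.63 at T30 and T60, and 0.60 at T300 and T900. Their median level was -0.23 in the deletion and -0.67 in WT at T0, and -0.50 in the deletion and -1.13 in WT at T300 and T900. At 99 of the 115 the difference was positive at T0 in both sets that have this code. The values at every code, T0 among them, enter the means that chose the 115. These medians and this count therefore describe the probes and are no test. The largest difference fell in the T0 window at 18 probes, in T5 and T15 at 9, in T30 and T60 at 44, and in T300 and T900 at 44. The windows rest on unlike numbers of arrays: T0 lacks set 1, and set 1 enters T30 and T60 at T30 alone. These counts are therefore descriptions. None of the 5 chaperone ORFs had its largest difference in the last window, and 4 of the 9 general stress ORFs did.

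A direct test of late minus early differences, T300 and T900 minus T5 and T15, called no probe (0%; limma, lowest adjusted p = 0.447), with 368 at an unadjusted p under 0.05. Nor did any of the alternative settings tried call a probe. The per-set values are given as descriptions. At HSP42 they were -0.37, -1.70 and -1.22, negative in every set. At the HSP12 promoter they were 1.35, 0.83 and 1.30, at the FMP45 promoter 1.61, 0.84 and 1.24 and at the CTT1 ORF 1.45, 0.67 and 1.29, positive in every set. Of the 115 probes 27 were above 0 in all 3 sets and 16 below, beside 1428 and 1368 of 13020. The YRB2 promoter, among the largest positive values by size alone, had 0.03, 0.22 and 4.80 and rested on set 3.

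The T0 difference alone, with 2 sets, also called no probe (0%; limma, lowest adjusted p = 0.98), with 519 at an unadjusted p under 0.05. The SNF2 ORF had -1.39 in set 2 and -2.06 in set 3. The other leading probes were uneven between the sets, for instance RLF2, a chromatin assembly factor gene, with 0.14 in set 2 and 3.62 in set 3. Whether a given probe differed before heat shock was therefore not settled by this test.

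Chromosome ends, ribosomal DNA and the silent mating loci, which are packed into silent chromatin, were looked at apart from the lists. Of 10 telomere probes, all with a mean above 0 and 6 with the same sign in all sets, 3 passed: TEL15R-1 (0.54), TEL1R (0.49) and TEL9L (0.47), against 0.883% of all probes. Without set 3 none of these 3 passed (limma adjusted p = 0.114, 0.076 and 0.143). Telomeric repeats are near-identical, so these probes are not independent. At chromosome ends and ribosomal DNA, a difference of H4 and one of copy number cannot be told apart. Of 17 ribosomal DNA probes 16 had a mean above 0 but 5 had the same sign in all sets, with set medians of -0.05, 0.30 and 0.14. Of them 1 passed, RDN37-1B at 0.46 (limma adjusted p = 0.031), a call lost under 9 of 16 alternatives, among them without set 2 (0.105) and without set 3 (0.070). Among the 5 outermost genes of each chromosome arm, 6 of 147 ORFs rose and the median was 0.09 (0.15, 0.01 and 0.10 in the sets), beside 39 of 5668 ORFs further inside with a median of -0.01. The HMRA1 ORF probe, named for the silent copy of the a1 gene, may also read a copy at the mating-type locus. The labels do not give the mating type, so its values cannot be given to the silent copy. This probe was picked after its values were seen. It averaged -0.11, -0.23 and -0.43 in the deletion, against -0.95, -0.82 and -0.86 in WT (difference 0.62 ± 0.20, SD, n = 3; limma adjusted p = 0.017), while the HMLALPHA2 ORF had 0.30 and the MATALPHA1 ORF 0.14, neither past the threshold.

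**Figure D5:**
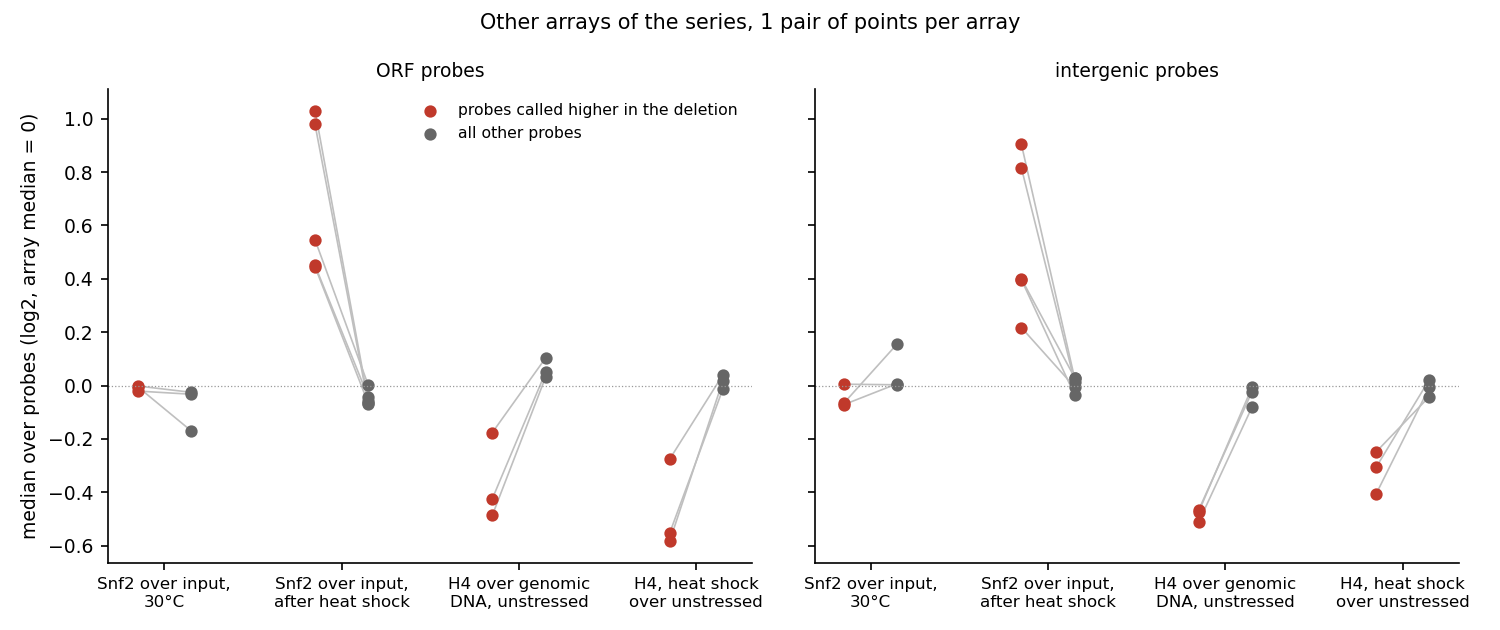
Median log2 ratio (array median at 0; y axis) over the probes with higher H4 in the snf2 deletion (red) and over all other probes of the same class (grey) on other arrays of the series (x axis), with 1 joined pair of points per array, for ORF probes on the left and intergenic probes on the right. On all 5 arrays of Snf2 after heat shock the red point lies above the grey one (by 0.49 to 1.09 for ORF probes), while on the H4 arrays it lies below.

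Arrays that had no part in the choice of probes show what else the 115 share. In Snf2 ChIP after heat shock, 5 arrays, the median of the 48 ORF probes was 0.69 ± 0.29 and that of the other ORF probes -0.05 ± 0.03, a difference of 0.74 ± 0.30 (SD, n = 5 arrays) that was above 0 on each array. All 48 lay above the median of the other ORF probes. For the 62 intergenic probes the difference was 0.54 ± 0.28, from 0.22 to 0.88. Before heat shock, at 30 °C, the difference was 0.07 ± 0.08 for ORF probes and -0.10 ± 0.11 for intergenic probes (SD, n = 3 arrays). Places that gained H4 in the deletion were thus places of high Snf2 signal after heat shock. Across all 6262 ORF probes the rank correlation of the H4 difference with Snf2 after heat shock was 0.19, and across 5811 intergenic probes 0.23, where probes share libraries and are not replicates.

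Most of the same places had lower H4 after heat shock in direct hybridisations of H4 DNA from cells at 39 °C against cells at 30 °C. The 48 ORF probes lay below the other ORF probes by -0.49 ± 0.15 (SD, n = 3 arrays) and the 62 intergenic probes below theirs by -0.31 ± 0.10, while 4 of the 48 and 17 of the 62 lay above the median of the others. Of the gene lists, the chaperone ORFs had a median of -1.0 on these arrays, the general stress ORFs -0.45 and the glycolytic ORFs -0.12. The parts of low H4, high Snf2 and lower H4 after heat shock in the strain difference were not tested.

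Acetylated H4 was measured over time in the same strains. It was higher in the deletion in all 3 sets at 92 of the 115 probes (80%), beside 2521 of 13020 (19.4%). In the gap between SED1 and SHU2 it differed by 1.49, 2.40 and 2.26, and at the CCW22 promoter by 0.70, 1.41 and 1.16. The HMRA1 probe had a higher H4 signal in the deletion and acetylated H4 of 0.07, -0.13 and -0.13. The labels name genomic DNA of the deletion as the reference for deletion sets 2 and 3 of this measurement, so it is given beside total H4 without a ratio of the 2. For mRNA at T0, on 2 arrays per strain, the 48 genes had a median difference of -0.08 and the other genes -0.07. On 1 array per strain at T300 the medians were -0.48 for the 48 and -0.08 for the others, with no replicate. At T900 they were -0.62 and 0.00, from 1 deletion array, without replicate, and the mean of 2 WT arrays. Single arrays of deletion over WT total RNA gave 0.83 for the 48 and 0.12 for the others in mid-log growth, opposite in direction, and -0.09 and 0.16 after heat shock at 39 °C. At T0, 24 of the 48 lay above the median of the other genes. Single genes went both ways, with YGP1 at -3.27 and PGM2 at -2.03, and GLK1 at 0.33 and HSP42 at 0.19.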

How the data were processed

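The deposited values are log2 ratios of Cy5 over Cy3 per array spot, as the values themselves show: of ratios below 0.5, 100% lie within 0.02 of a whole number of thousandths with base 2, and 5.99% with base e. How the authors scanned, normalised and filtered the arrays before they deposited these log2 values is not given in the sources used here. Each array was centred on its median (0.0014 to 0.16 before). Of 13029 probes, 9 had no value. ORF and gap probes were named through the R64 annotation (5777 of 6269 ORFs matched).

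Deletion minus WT was taken within set and time code, averaged per set, and tested against 0 with limma 3.58.1 in R 4.3.3 (lmFit, eBayes, two-sided), with Benjamini-Hochberg adjustment over 13020 probes and a threshold of 0.05. Late minus early (n = 3) and T0 (n = 2) were tested likewise. Sets paired the arrays: deviations of same-numbered sets from the strain means correlated at 0.61, 0.73 and 0.79. The repeat arrays 2-a and 2-b correlated at 0.91. The number of sets limits the precision. The code was tested on simulated data.

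Named probes were the 10 largest differences in each direction among those past the threshold with 1 sign in all sets (completed by probes with 1 sign in all pairs, 5 for the other contrasts), SNF2 and its neighbours, up to 4 leading members per list, and fixed genes; probes adjoining a named probe were added where described. The promoter shared by FMP45 and YDL221W and the HMRA1 ORF were picked outside this rule. Members and gene lists were chosen with earlier results of these data known. No sequence or genome was used here.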

Additional observations from a re-analysis of the deposited data

How the results depend on the processing

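The count of 117 probes with a strain difference changed most with how sets were handled. A fit with no replicate block, which ignores the pairing by set, called 0 probes (318 at an unadjusted p under 0.05; lowest limma adjusted p = 0.386). Taking all 19 pairs with set as a random block gave 347 probes, 112 of them among the 117, and the median over time codes in place of the mean gave 69, with 65 shared. Leaving out each set in turn gave 19 to 226 probes, with 117, 90 and 18 of the 117 kept without sets 1, 2 and 3. The other settings, among them no centring (137), scaling to equal spread (124) and, chosen after seeing the data, leaving out T900 in all sets (97) or in sets 1 and 3 (92), stayed within 1.5 times. For the 33 named probes past the threshold, 528 values under alternatives kept their sign, and 74 of them no longer passed. Over these alternatives the count of ORFs that rose ranged from 0 to 8 for chaperones, 0 to 18 for general stress, 0 to 5 for glycolysis and 0 to 7 for the cell wall, and 0 to 8 for general stress promoters. The late minus early and T0 contrasts called 0 probes under each alternative run. Dim spots could not be weighed, since intensities were not used here.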

Other observations

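Chromosome XII, which carries the ribosomal DNA, had a median strain difference of 0.04 over 1070 probes (0.04, 0.03 and 0.05 in sets 1, 2 and 3), while the medians of the other chromosomes lay between -0.02 and 0.01. Here too a difference of H4 and one of copy number cannot be told apart. Of all 13020 probes, those past the threshold included, 429 had a mean difference above 0.25 and 40 one below -0.25. The spread of H4 values within an array was measured as the median absolute deviation, scaled to the SD of a normal distribution. Its median over the arrays of a set was 0.292, 0.228 and 0.305 in the deletion in sets 1, 2 and 3, against 0.319, 0.280 and 0.335 in WT. Single arrays of the strains overlapped in every set, for instance from 0.293 to 0.398 in the deletion and from 0.289 to 0.388 in WT in set 3. Ordered by H4 level in unstressed cells on separate arrays, the 1302 probes lowest in H4 had a median difference of 0.05 and the 1302 highest one of -0.03. By set, the lowest class had 0.01, 0.09 and 0.08 in sets 1, 2 and 3, and the highest 0.01, -0.04 and -0.05. The classes thus differed in sets 2 and 3 and not in set 1.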
